A study of Anas platyrhynchos with 12 samples.

Results

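Endothelins are small vasoactive peptides that signal through receptors on neighbouring cells. The genes of the endothelin system were read out in breast muscle of ducks (Anas platyrhynchos) and comprise the peptide genes EDN1, EDN2 and EDN3, the receptor genes EDNRA and EDNRB, and ECE1, which encodes the converting enzyme. Their gene models were taken by symbol from the deposited table, and 7 of 16433 gene models matched the 6 symbols. The symbol EDNRB was carried by a pair of models. The reference gene table names ncbi_101790262 EDNRB and gives ncbi_101805249 the synonym EDNRB2, so the models are called EDNRB and EDNRB2 here. The remaining models are ncbi_101803012 (EDN1), ncbi_101795578 (EDN2), ncbi_101803675 (EDN3), ncbi_101796799 (EDNRA) and ncbi_101793363 (ECE1).

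The birds came from an F2 cross, were all kept under the same conditions with free access to food and water, and were sampled at 42 days of age. The labels assign 6 samples to a group with high breast muscle ratios (HB) and 6 to a group with low ratios (LB), and they give no strain of the founders, sex, treatment or litter. The HB and LB groups are ends of a trait distribution, not an intervention. RNA of the frozen muscle was extracted with Trizol, and a TruSeq kit gave the libraries.

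Each endothelin is made as a precursor that furin-type proteases cut to big endothelin, and ECE1, a membrane metalloprotease, cuts this to the active peptide. EDNRA on vascular smooth muscle couples to Gq proteins and contracts the vessel, while EDNRB on endothelium releases nitric oxide and clears the peptide. EDN3 and B-type receptors also guide neural crest cells, and in birds EDNRB2 acts in the precursors of pigment cells.

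Library totals lay between 24090771 and 42503751 counts. Skeletal muscle markers were abundant in all libraries, with ACTA1, which encodes skeletal actin, at 27040 to 58170 FPKM. Their summed level was 77030 FPKM in HB-5 and 41170 to 57610 FPKM in the other libraries. Library HB-4 stood apart from the other libraries. It was lowest of all for the endothelial genes CDH5, TIE1, EGFL7 and ESAM, with 57.5, 43.1, 33.9 and 29.4 FPKM, and highest for the immediate early genes FOS and JUN, with 801 and 1381 FPKM. The summed level of the 15 endothelial markers was 425 FPKM in HB-4, 575 (HB-5) to 832 FPKM in the other HB libraries and 732 to 1002 FPKM in LB. Results of the members that rest on HB-4 are therefore given with and without it. The part of these marker shifts in the endothelin values was not tested, and in bulk tissue fewer cells of a type and less RNA per cell cannot be told apart.

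All 7 gene models were detected in all 12 libraries and passed the filter on low counts. The lowest count was 30 reads, for EDNRB2 in LB-4, and the highest was 3687 reads, for EDNRA in LB-5. EDNRA was the most abundant on the FPKM scale, with a mean of 18.3 FPKM over the 12 libraries, followed by ECE1 with 11.3 FPKM. EDN2 followed with 4.13 FPKM, EDNRB with 3.10 FPKM and EDN3 with 2.71 FPKM. EDNRB2 and EDN1 were lowest, with 1.72 and 1.68 FPKM. The place of EDN2 above EDNRB and EDN3 rests on the HB libraries, where EDN2 averaged 5.77 FPKM. Among the LB libraries EDN2 averaged 2.49 FPKM, below EDNRB at 3.43 FPKM and EDN3 at 3.08 FPKM.

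With all 12 libraries, only the steps from EDNRA to ECE1 and from ECE1 to EDN2 held beyond the spread between libraries. The pairs and their direction come from the mean FPKM of these same libraries, with both groups pooled. The place of EDN2 next to ECE1 thus draws on the HB values behind its selection, which is described below. The p-values cover only the spread between libraries. An error in the length implied for a gene model would be shared by all libraries and was not tested. EDNRA exceeded ECE1 in 11 of 12 libraries, by 0.70 ± 0.81 log2 units (mean ± SD of the log2(FPKM + 0.1) level difference, n = 12, exact two-sided sign-flip permutation p 0.0166, adjusted p 0.0498 over 6 neighbouring pairs). The exception was HB-4, where ECE1 was at 24.1 FPKM and EDNRA at 8.61 FPKM. ECE1 exceeded EDN2 in all 12 libraries, by 1.57 ± 0.80 log2 units (exact p 0.000488, the smallest that the sign flips can give, adjusted p 0.00293). EDN2 was above EDNRB in 6 of 12 libraries (HB-1 to HB-5 and LB-4) and EDNRB above EDN3 in 7 of 12. These steps did not pass the test (adjusted p 0.490 and 0.268, exact permutation). The order of EDN2 and EDNRB thus mostly followed the group, which the test on pooled libraries cannot separate from other spread. EDN3 was above EDNRB2 in 9 of 12 libraries, by 0.76 ± 1.21 log2 units (adjusted p 0.104, exact permutation). Without HB-4 that level difference was 1.04 log2 units, with an adjusted p of 0.0117 in the exact permutation test. EDNRB2 was above EDN1 in 5 of 12 libraries (adjusted p 0.656, exact permutation).

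The members were chosen by family after EDN2 had been selected on its p in the comparison of HB with LB, where it ranked at 5 of 12577 genes. The HB and LB values of all members are therefore a description of these libraries, and they carry no support for a difference between the groups. No member was called: 0 of 7 passed an adjusted p of 0.05 in edgeR, where 0 of 12577 genes tested did (0.00%), with 579 genes at an unadjusted p under 0.05 (4.60%). DESeq2 called 1 of 14981 genes (0.00668%), which was none of the 7, and its adjusted p for EDN2 was 0.199. In edgeR the adjusted p of each member was 0.977.

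EDN2 encodes endothelin 2, a vasoconstrictor that binds both A-type and B-type receptors. Its HB libraries held 5.03, 9.47, 5.37, 9.22, 2.83 and 2.67 FPKM in HB-1 to HB-6. Its LB libraries held 1.68, 2.68, 2.81, 3.02, 1.99 and 2.76 FPKM in LB-1 to LB-6. HB-1 to HB-4 lay above every LB library, while HB-5 and HB-6 lay inside the LB range, so the groups overlapped. The group means were 5.77 ± 2.98 FPKM in HB, against 2.49 ± 0.53 FPKM for LB (SD, n = 6), and the edgeR log2 difference, HB minus LB, was 1.26 ± 0.31 (SE). Leaving out single libraries moved this log2 difference from 1.06 without HB-4 to 1.41 without HB-6. The counts behind these values were 148 to 862 reads per library.

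EDN1 encodes endothelin 1, the main endothelin of vascular endothelium in mammals. It held from 1.20 to 2.77 FPKM in HB (median 1.85 FPKM) and from 1.04 to 1.81 FPKM in LB (median 1.46 FPKM). HB-1, HB-2, HB-3 and HB-5 exceeded the highest LB library, while HB-4 and HB-6 lay within the LB range. The edgeR log2 difference was 0.49 ± 0.22 (SE), and it lay between 0.37 and 0.61 when single libraries were left out. HB-3 was highest and HB-6 lowest within HB.

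EDN3 encodes endothelin 3, which prefers B-type receptors and acts in the development of pigment cells and of enteric nerves. It held from 0.752 to 3.02 FPKM in HB (median 2.56 FPKM) and from 2.53 to 3.68 FPKM in LB (median 3.10 FPKM). HB-4 held the lowest value, and the other HB libraries lay at 2.26 FPKM or more and overlapped with LB. The edgeR log2 difference was -0.35 ± 0.25 (SE), and without HB-4 it was -0.16. The HB-4 value rests on 84 reads, against 205 to 474 reads in the other libraries.

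**Figure D1:**
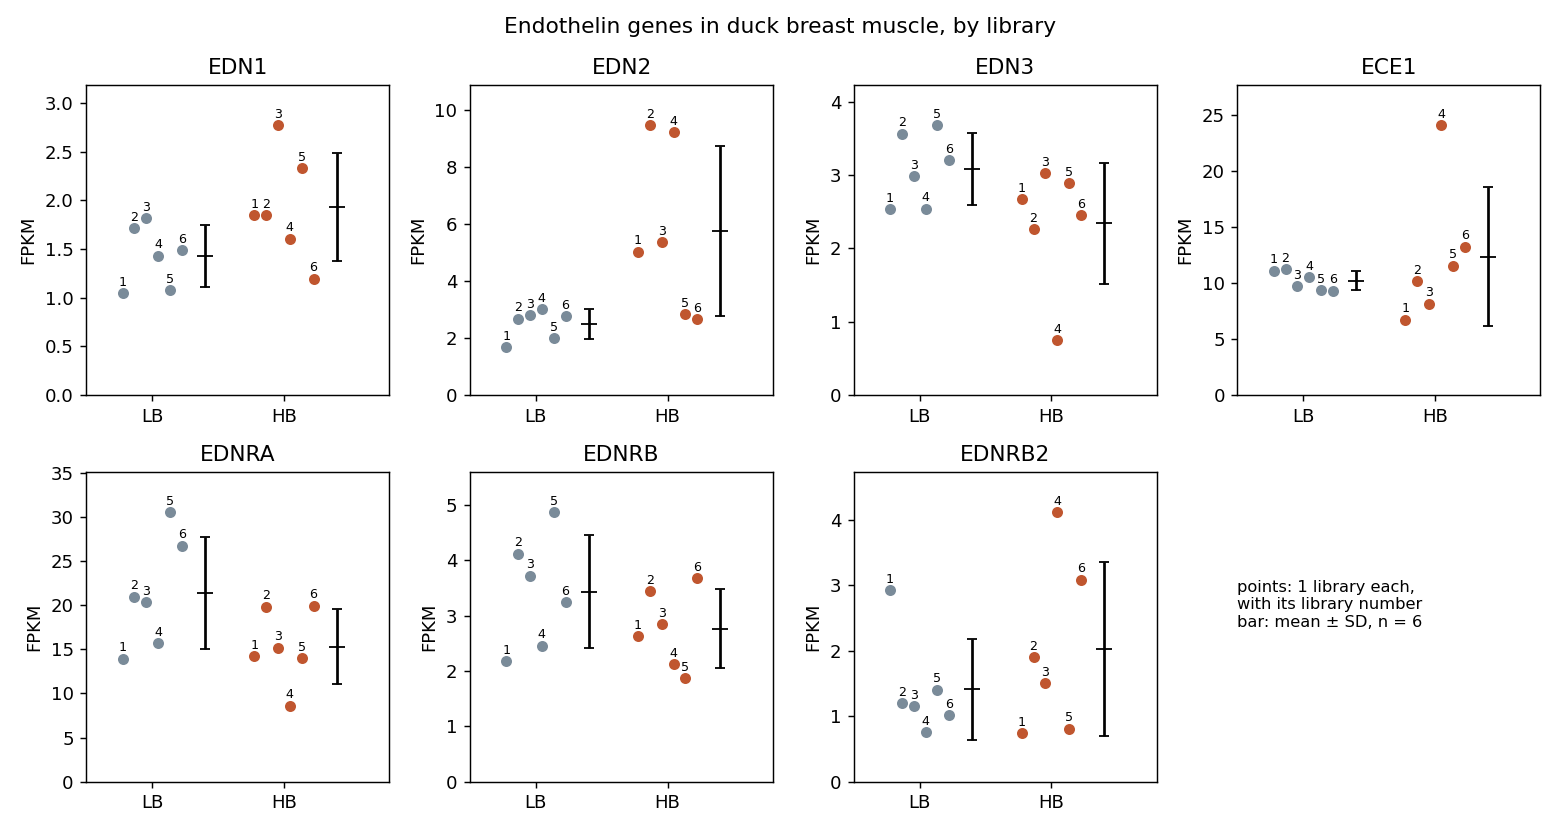
FPKM of each endothelin gene model (y axis, from 0) in the LB and HB groups (x axis), with 1 point per library marked by its library number and the mean ± SD of 6 libraries beside it. EDN2 is highest in HB-2 and HB-4 (9.47 and 9.22 FPKM), EDN3 is lowest in HB-4 (0.752 FPKM) and ECE1 is highest in HB-4 (24.1 FPKM).

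The peptide genes differed in which of them was most abundant. As a share of the summed FPKM of EDN1, EDN2 and EDN3, EDN2 made up 54.6 ± 16.9% in HB and 35.4 ± 4.81% in LB (SD, n = 6). It was the most abundant peptide gene in 5 HB libraries and in 1 LB library. EDN3 made up 25.5 ± 12.1% in HB and 44.4 ± 6.50% in LB, and it was the most abundant in 1 HB library and in 5 LB libraries. The libraries at the ends were HB-4, with 79.6% EDN2 and 6.49% EDN3, and LB-5, with 29.5% EDN2 and 54.6% EDN3. HB-5 and HB-6, with 35.2% and 42.3% EDN2, lay inside the LB range of 29.5% to 43.2%. The share of EDN1 was 19.9 ± 6.05% in HB and 20.3 ± 2.57% in LB. The 3 genes summed to 6.32 to 13.6 FPKM in HB and to 5.25 to 7.96 FPKM in LB. These shares rest on the same comparison by which EDN2 was picked and are given without a test.

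**Figure D2:**
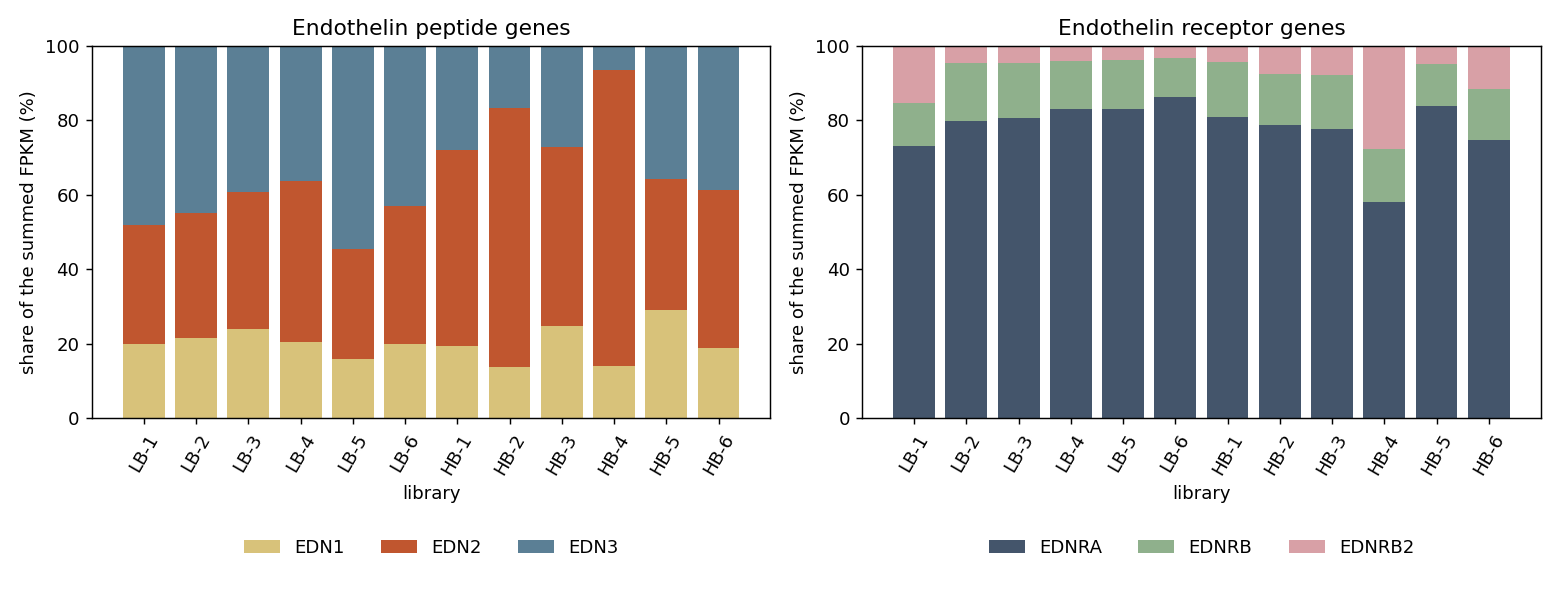
Share of each gene in the summed FPKM (y axis, percent) of the 3 peptide genes (left) and the 3 receptor genes (right), with 1 stacked bar per library (x axis). EDN2 takes between 48.1% and 79.6% of the peptide sum in HB-1 to HB-4 and at most 43.2% elsewhere, and EDNRA takes 58.0% of the receptor sum in HB-4 and at least 73.2% in the other libraries.

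ECE1 held from 6.74 to 24.1 FPKM in HB (median 10.9 FPKM) and from 9.32 to 11.3 FPKM in LB (median 10.1 FPKM). The LB libraries lay close together, with an SD of 0.875 FPKM, and the HB libraries lay on both sides of them, with HB-1 and HB-3 below, HB-4, HB-5 and HB-6 above, and HB-2 inside the LB range. The edgeR log2 difference was 0.32 ± 0.26 (SE) with all libraries and -0.00043 without HB-4, so its direction rested on HB-4.

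EDNRA held from 8.61 to 19.9 FPKM in HB (median 14.7 FPKM) and from 13.9 to 30.5 FPKM in LB (median 20.7 FPKM). LB-2, LB-3, LB-5 and LB-6 exceeded every HB library, and HB-4 lay below every LB library. The group means were 15.3 ± 4.23 FPKM in HB, against 21.4 ± 6.35 FPKM for LB (SD, n = 6). The edgeR log2 difference was -0.43 ± 0.20 (SE), and it was -0.31 without HB-4 and also -0.31 without LB-5, the library with the highest level. HB-4 was also lowest for the endothelial markers, as given above. The summed level of the 11 smooth muscle and pericyte markers was 477.5 to 666 FPKM in HB, against 480.3 to 666 FPKM for LB. The part of either marker list in the EDNRA difference was not tested.

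EDNRB held from 1.88 to 3.69 FPKM in HB (median 2.74 FPKM) and from 2.18 to 4.87 FPKM in LB (median 3.49 FPKM). LB-2, LB-3 and LB-5 exceeded every HB library, and HB-4 and HB-5 lay below every LB library. The edgeR log2 difference was -0.27 ± 0.19 (SE), between -0.35 and -0.15 when single libraries were left out.

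EDNRB2 held from 0.739 to 4.12 FPKM in HB (median 1.70 FPKM) and from 0.760 to 2.93 FPKM in LB (median 1.17 FPKM). HB-4, HB-6 and LB-1 were high, at 4.12, 3.08 and 2.93 FPKM, and the other 9 libraries held 1.90 FPKM or less. The edgeR log2 difference was 0.53 ± 0.46 (SE), 0.17 without HB-4 and 0.94 without LB-1. Reads of EDNRB and EDNRB2 could be split between the models if their sequences are alike, which was not examined here. Of 8 melanocyte markers 7 had a model. TYRP1 was at 0 in all libraries, OCA2, MLANA and SLC45A2 reached at most 0.161, 0.08 and 0.316 FPKM, and MITF, which many other cell types also express, held 5.05 to 11.4 FPKM. The summed level of these markers was 5.53 to 11.4 FPKM in HB, against 5.73 to 10.2 FPKM for LB.

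EDNRA made up most of the receptor RNA in all 12 libraries, with 75.7 ± 9.18% of the summed FPKM in HB and 81.0 ± 4.42% in LB (SD, n = 6). EDNRB made up 13.8 ± 1.32% and 13.1 ± 1.96%, and EDNRB2 10.6 ± 8.79% and 5.94 ± 4.65%. In HB-4 the share of EDNRA was 58.0% and that of EDNRB2 27.7%. The receptor sum was 14.8 to 26.7 FPKM in HB, against 18.9 to 36.8 FPKM for LB.

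**Figure D3:**
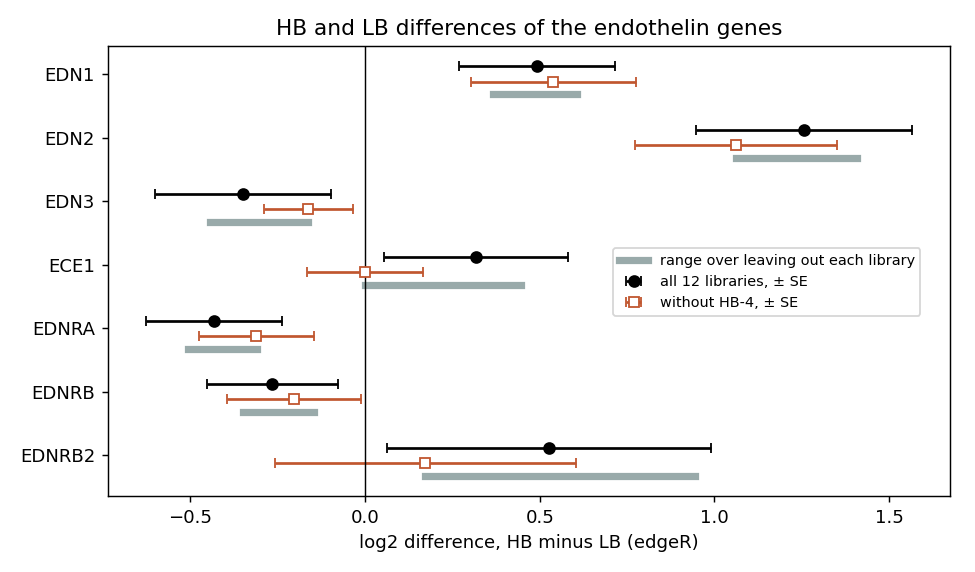
Log2 differences between HB and LB in edgeR (x axis, HB minus LB) for the 7 endothelin gene models (y axis), with all 12 libraries (black, ± SE), without HB-4 (open squares, ± SE) and as the range over leaving out each library in turn (grey bars). The range of EDN2 runs from 1.06 to 1.41, while that of ECE1 reaches -0.00043 and that of EDNRB2 runs from 0.17 to 0.94.

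The members differed in how much they varied between libraries of the same group. The SD of log2(FPKM + 0.1) within groups was largest for EDNRB2 (0.79) and EDN2 (0.59) and smallest for EDN1 (0.36), where the median of 10361 genes that averaged 1 FPKM or more was 0.28. EDNRB2 exceeded 93.9% of these genes and EDN2 88.4%. These SDs pool both groups, and the genes were not matched to the members for level. In FPKM the SD of EDN2 was 2.98 in HB (mean 5.77) and 0.53 in LB (mean 2.49). EDNRB2 had 30 to 225 reads per library, and the part of low counts in its SD was not tested. HB-4 carried much of the spread of EDN3 and ECE1. Without HB-4 the SD of EDN3 went from 0.52 to 0.20 and that of ECE1 from 0.46 to 0.27, while that of EDN2 went from 0.59 to 0.55.

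Covariation within groups does not use the difference between the groups, and it was computed for all 21 pairs of members with the group means subtracted. EDNRA and EDNRB had the smallest p of the 21 pairs, with Pearson r 0.82 over 12 libraries (permutation p 0.00268, adjusted p 0.0563), which missed the threshold. Spearman rho for this pair was 0.89 (permutation p 0.00079, adjusted p 0.0166), which passed. The coefficient was 0.78 within HB and 0.85 within LB, 0.85 without HB-4, and 0.79 without HB-4 and LB-5, the libraries farthest from the median of EDNRA (permutation p 0.0136). LB-5 held the highest level of both receptors. It also had the lowest summed level of skeletal muscle markers, at 41170 FPKM. HB-5, the lowest library for EDNRB, had the highest summed level of these markers, at 77030 FPKM. The FPKM values were scaled by library totals, with no further scaling for composition, which all members of a library share. The part of this in the coefficients was not tested.

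The other pairs with an unadjusted p under 0.05 weakened without HB-4. ECE1 and EDN3 had r = -0.82 and rho = -0.54 (permutation p 0.0318 and 0.105, adjusted p 0.177 and 0.391), and r was -0.36 without HB-1 and HB-4. Without HB-4 alone it was -0.27, so this relation rests on that library. EDNRA and EDN3 had r = 0.70 and rho = 0.46 (permutation p 0.0201 and 0.130, adjusted p 0.177 and 0.391), and r was 0.44 without HB-4 and 0.23 without HB-4 and LB-5. ECE1 and EDNRB2 had r = 0.68 and rho = 0.59 (permutation p 0.0350 and 0.102, adjusted p 0.177 and 0.391), and r was 0.50 without HB-4 and 0.30 without HB-1 and HB-4. EDN3 and EDNRB2 had r = -0.60 and rho = -0.57 (permutation p 0.0422 and 0.0719, adjusted p 0.177 and 0.391), and r was -0.32 without HB-4 and -0.40 without HB-4 and LB-5. EDN2 had no pair with an unadjusted p under 0.05, and its r with EDN1, EDN3, ECE1, EDNRA, EDNRB and EDNRB2 was 0.27, -0.51, 0.19, -0.20, 0.06 and 0.07. Without HB-4 these coefficients were 0.43, -0.17, -0.44, 0.14, 0.23 and -0.26, so the signs for ECE1, EDNRA and EDNRB2 turned.

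**Figure D4:**
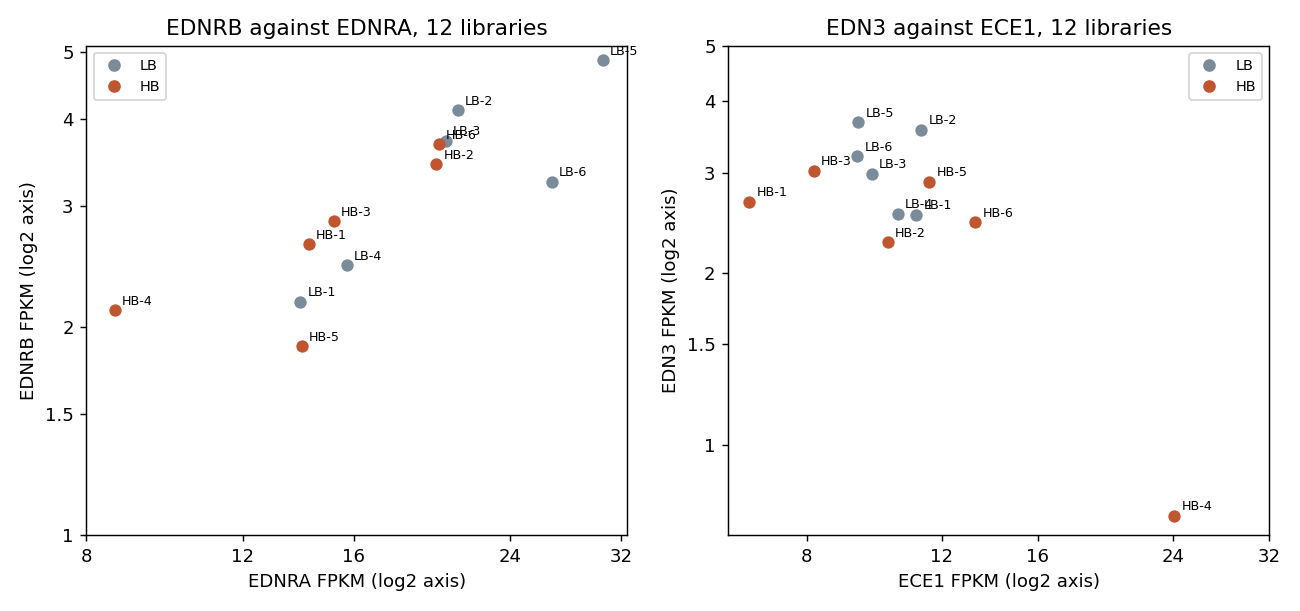
EDNRB against EDNRA (left) and EDN3 against ECE1 (right), FPKM on log2 axes, with 1 point per library. EDNRB and EDNRA are highest together in LB-5 (4.87 and 30.5 FPKM), while the right plot shows HB-4 alone at high ECE1 (24.1 FPKM) and low EDN3 (0.752 FPKM).

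The levels of the members were also set beside 4 lists of marker genes within groups, which gave 28 pairs of a member and a list, and none passed the test (smallest adjusted p 0.328, permutation). The pairs with the smallest p were the receptors with the 15 endothelial markers. EDNRB and these markers had r = 0.62 and rho = 0.66 (permutation p 0.0198 and 0.0218, adjusted p 0.328 and 0.305), 0.69 without HB-4 and 0.70 without HB-5 and LB-5. EDNRA and these markers had r = 0.67 and rho = 0.69 (permutation p 0.0234 and 0.0214, adjusted p 0.328 and 0.305), but r = 0.38 without HB-4 and 0.50 without HB-4 and LB-5. Coefficients of this size were not particular to the receptors. EDN3 and the endothelial markers had r = 0.76 and rho = 0.37 (permutation p 0.0795 and 0.278), but r = 0.02 without HB-4. ECE1 and the endothelial markers had r = -0.68 and rho = -0.36 (permutation p 0.0984 and 0.339), but r = -0.04 without HB-4. EDNRB2 and the 11 smooth muscle and pericyte markers had r = 0.61 and rho = 0.41 (permutation p 0.0394 and 0.199, adjusted p 0.367 and 0.748), 0.59 without HB-4 and 0.37 without HB-4 and HB-6. EDNRA, the contractile receptor, had r = -0.09 with the smooth muscle and pericyte markers, and 0.08 without HB-4. EDN2 had r = -0.15 with the endothelial markers, and 0.47 without HB-4. EDNRA and the fibroblast markers had r = 0.30 and rho = 0.36 (permutation p 0.371 and 0.271, adjusted p 0.649 and 0.748). Without HB-4 their r was 0.84 (permutation p 0.00481, adjusted p 0.135), the smallest p of the 28 pairs in that setting, and it was 0.92 without HB-4 and LB-5. Within the groups their r was -0.23 in HB and 0.84 in LB.

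The genes most like each member were sought among 9944 named genes that averaged 1 FPKM or more, by Pearson r of log2 levels within groups over 12 libraries. The coefficients are a description: they are the highest of many, and all values share the same libraries and their depth. EDN2 was most like DGCR6 (r = 0.91), TSNAX (0.90), MTG2 (0.90), PSMB2 (0.87) and CNN2 (0.87). Without HB-4 these coefficients lay between 0.84 and 0.91. EDNRA was most like SEPTIN9 (r = 0.96), followed by CFAP298, PHC1, SFXN2 and CRLF3, and EDNRB was most like EXOSC8 (r = 0.95), followed by SLC25A22, FUBP3, TXNRD1 and RNGTT. EDN1 was most like DNAJC15 (r = 0.91), followed by TBC1D13, NT5C3B, FAM241A and CHST5. EDNRB2 was most like CDO1 (r = 0.90), followed by RIC1, PLPPR5, RANBP9 and TAX1BP1. ECE1 was most like F8 (r = 0.97), followed by SPRY1, EPS8L2, IRAK2 and NTN4, and EDN3 was most like HOXB2 (r = 0.96), followed by SIM2, RASGRP3, MYCN and NTMT2. For EDN3 the coefficients fell to between 0.54 and 0.69 without HB-4, and for ECE1 to between 0.82 and 0.93.

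Of the other genes of the endothelin pathway none was called between HB and LB. Of 12 genes for processing and breakdown of endothelins 10 were tested and 0 were called, with 8 positive and 2 negative edgeR log2 differences and a median of 0.17, where 49.9% of all 12577 genes were positive with a median of -0.00025. The median of the list was 0.09 without HB-1, and 0.08 and 0.11 in limma with pseudocounts of 1 and 0.1. FURIN, the protease that cuts the precursor, held 25.4 ± 2.50 FPKM in HB, against 22.7 ± 2.58 FPKM for LB (SD, n = 6). PCSK7 and PCSK5, related proteases, held 8.83 to 12.9 FPKM and 3.63 to 9.37 FPKM over all libraries, with the highest PCSK5 level in HB-4. CTSA, a lysosomal carboxypeptidase that degrades endothelin 1 in mammals, held 104 ± 7.35 FPKM in HB, against 102 ± 9.71 FPKM for LB.

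Of 39 genes that couple the receptors to their effectors 35 had 1 model under the naming rule given below. These 35 were tested and 0 were called, with 10 positive and 25 negative log2 differences and a median of -0.06. That median was -0.04 without HB-1, -0.03 without HB-5, -0.09 without HB-6 and -0.10 in limma with a pseudocount of 0.1. A GNAQ model that the rule did not take had a log2 difference of 0.95 (edgeR unadjusted p 0.0237, adjusted p 0.977). RHOA, a small GTPase of smooth muscle contraction, held 221 ± 40.1 FPKM in HB, against 229.9 ± 23.2 FPKM for LB. The inhibitory G protein subunits GNAI2 and GNAI3 were lowest in HB-4, at 74.0 and 27.7 FPKM. ARRB1, an arrestin that ends receptor signalling, held 23.7 ± 3.60 FPKM in HB, against 27.6 ± 3.88 FPKM for LB.

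Of 48 genes of other vasoactive systems 32 were tested and 0 were called, with 11 positive and 21 negative log2 differences and a median of -0.09, which was -0.04 without HB-4 and also -0.04 without LB-1, and -0.14 in limma with a pseudocount of 0.1. APLNR, the receptor of the vasodilator apelin, held 120 ± 61.9 FPKM in HB, against 198 ± 64.8 FPKM for LB, with 11.0 FPKM in HB-4. ACE, which makes the vasoconstrictor angiotensin II, held 36.0 ± 17.7 FPKM in HB, against 42.4 ± 10.8 FPKM for LB, and was likewise lowest in HB-4, at 14.6 FPKM. RAMP2, a partner of the adrenomedullin receptor, held 51.4 to 122 FPKM over all libraries.

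Of 25 genes of hypoxia and of endothelin transcription 21 were tested and 0 were called, with 16 positive and 5 negative log2 differences and a median of 0.10 that was -0.07 without HB-4 and -0.02 in limma. EPAS1, a hypoxia-inducible factor of endothelium, held 165 ± 14.5 FPKM in HB, against 174 ± 17.8 FPKM for LB. KLF2, an endothelial factor induced by flow, reached 369 FPKM in HB-4.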

How the data were processed

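RNA of 12 breast muscle samples was sequenced, 6 in each group. The authors deposited a table of 16433 gene models. Per the file headers it holds read counts in 12 libraries and a mean FPKM per group (fragments scaled by gene length and library total). A group mean of 0.001 was taken here to stand for 0, which the headers do not state. The tools named in the submitters' processing notes are HISAT2, DESeq2, fastp 0.18.0 and StringTie 1.3.1. Genome build, annotation and counting are not given in the sources used. FPKM per library was computed here by dividing counts by library totals and by the gene length implied in the deposited mean FPKM. Lengths from both group means were within 0.463% of each other for 10188 genes at 1 FPKM or more in each group. A further 12 columns, headed as FPKM per library, were also deposited. They were not used, and the values computed here were not compared with them. Of 15747 NCBI gene numbers 14057 were found in the reference gene table of assembly GCF_047663525.1, which served for names only.

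Counts were tested with edgeR 4.0.16 (quasi-likelihood test, R 4.3.3, TMM scaling, filterByExpr, Benjamini-Hochberg adjustment over all genes tested at 0.05). On counts simulated for 12436 genes of the HB and LB comparison, this recovered 65% of genes changed 2-fold and 90.5% of those changed 4-fold. Of the genes called there, 4.41% and 2.69% were unchanged. The simulated counts were independent between genes and held no outlying library such as HB-4. These shares are therefore a check of the method and not its power in the real libraries. Alternatives used DESeq2 1.42.0, limma 3.58.1, other scalings, no filter, and the removal of each library. Correlations used log2(FPKM + 0.1) with group means subtracted and 100000 permutations within groups, and levels of neighbouring genes were compared by exact sign-flip permutation over 4096 flips. For the correlations, marker lists kept genes averaging 0.1 FPKM or more. The summed levels used all list genes with a model, and the counts of log2 differences used those tested in edgeR. A list gene was taken as the model that the reference table names so, or else as the only model with that symbol in the deposited table. A list gene with several models, none of them named so by the reference table, was left out. Tested models of a list gene can therefore be missing from the list counts.

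The members and the gene lists were chosen with earlier results of these data known. The genes named were all members, the 4 genes of each list with the highest mean FPKM among those with a model, and for each member the 5 most alike genes with at least 1 FPKM. The text gives all members, and of the lists those genes that bear on them. The GNAQ model was named in addition, outside this rule. The labels do not say whether each sample is a bird of its own. P-values thus measure only the spread between these samples, which may be technical.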

Additional observations from a re-analysis of the deposited data

Results flagged for a closer look

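In 2 of 14 groups of libraries, 1 library lay far from the other 5. Chance gives about 1 such group in 20 for independent values with a normal spread. These groups share the same 12 libraries, so the count cannot show an excess over chance. EDN3 held 0.752 FPKM in HB-4, where the other HB libraries held 2.26 to 3.02 FPKM, and this was the lowest EDN3 level of all 12 libraries. EDNRB2 held 2.93 FPKM in LB-1, where the other LB libraries held 0.760 to 1.41 FPKM.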

How the results depend on the processing

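No member was called under any alternative run, and edgeR and limma called 0 genes under all of theirs. DESeq2 called 1 gene. Leaving out each library in turn gave 0 called genes each time. The directions of EDN1, EDN2, EDN3, EDNRA, EDNRB and EDNRB2 held under all alternatives, while leaving out single libraries moved that of ECE1 from -0.00043 without HB-4 to 0.44 without HB-1. All alternatives reuse the libraries in which EDN2 was selected, so a direction that held carries no support for a difference between the groups. The median of the hypoxia and transcription list turned in limma (-0.016 with a pseudocount of 1 or 0.1) and ranged from -0.070 without HB-4 to 0.15 without LB-6 when single libraries were left out. These list medians were an alternative chosen after seeing the data, and the cause was not tested. Among pairs of members, 0 passed with Pearson r on centred values, 1 with Spearman rho and 3 without subtraction of the group means, and 0 passed without HB-4. Without that subtraction the coefficients include the difference between HB and LB, the comparison in which EDN2 was selected. These 3 passes therefore carry no support for covariation within groups. The cause of the change with Spearman rho was not tested. No pair of a member and a marker list passed under any alternative. The order of levels had 2 steps past the threshold with a pseudocount of 1 and 3 without HB-4. Low counts limit EDNRB2 and EDN1 most, with 30 and 70 reads in their lowest libraries. No paired analysis was possible because no label ties the numbers of HB and LB libraries to a shared litter, batch or bird, and the numbers serve only as names.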

Other observations

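ECE1 in HB-4, at 24.1 FPKM, lay just inside the limit used for single libraries. HB-4 was thus the lowest library for EDN3 and EDNRA and the highest for ECE1 and EDNRB2, while its EDN1 level of 1.61 FPKM lay within the LB range. The part of the other features of HB-4 in these values was not tested.

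The 7 Schwann cell markers tested had 1 positive and 6 negative edgeR log2 differences, with a median of -0.45 and 0 called. MBP, which encodes a myelin protein, averaged 8.44 ± 2.15 FPKM in HB, against 14.6 ± 6.90 FPKM for LB (SD, n = 6). EGR2 was the positive one, with a log2 difference of 1.37. It averaged 5.95 ± 10.6 FPKM in HB, against 2.39 ± 1.07 FPKM for LB, and was highest in HB-4, at 27.55 FPKM. The summed level of the Schwann cell markers in HB-4 was 43.5 FPKM. EDN3, EDNRB and EDNRA had r of 0.06, 0.01 and 0.01 with the 8 Schwann cell markers kept for the correlations, within groups over 12 libraries. For EDNRB2, EDN1, EDN2 and ECE1 r was 0.28, 0.27, -0.125 and 0.01. The smallest p of these was that of EDNRB2 (permutation p 0.317, adjusted p 0.649), whose r was 0.34 without HB-4.

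The remaining marker lists also held 0 called genes. The counts and medians of all marker lists, Schwann cell markers included, use all 12 libraries. They were not recomputed without HB-4, which had the lowest summed level of endothelial markers. Over all 12577 genes tested, 49.9% of the log2 differences were positive. The edgeR log2 differences were negative for 14 of 15 endothelial markers, with a median of -0.24, for 7 of 11 smooth muscle and pericyte markers, with a median of -0.06, and for 5 of 7 fibroblast markers, with a median of -0.11. They were negative for 6 of 9 macrophage markers, with a median of -0.09, and for 2 of 4 epithelial and skin markers, with a median of -0.13. For the 8 skeletal muscle markers tested they were all positive (median 0.25). The summed levels overlapped between HB and LB for each of these lists, with 85.1 to 187.5 and 76.9 to 167 FPKM for macrophage markers and 1.01 to 4.15 and 1.12 to 5.05 FPKM for epithelial and skin markers.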
